A study of Mus musculus with 15 samples.

Results

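The genes described here are those of the interleukin-18 (IL-18) system in mouse spleen: Il18, the cytokine itself, Casp1, the protease that cuts its precursor, Il18r1 and Il18rap, the chains of its receptor, and Nlrp3, a sensor that starts inflammasome assembly. They were picked by gene symbol, and the set was chosen by its reference-scaled counts across the 5 groups of this same table, so the levels and differences of these genes are given below as a description, with no test. Of the 5 genes, 4 were among the 561 genes of the count table, and all 4 passed the filter on low counts. No row of the table carried Nlrp3 under that symbol or another name in RefSeq, and Nlrp3 was not analysed here.

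IL-18 belongs to the IL-1 family and is made as an inactive precursor, which macrophages, dendritic cells and epithelial cells store. An inflammasome, a complex of a sensor such as NLRP3, an adaptor and caspase-1, cuts the precursor, and the mature cytokine is released. It binds IL-18 receptor 1 (Il18r1) with its accessory chain (Il18rap) on natural killer (NK) cells and T cells, signals through Myd88 and, together with IL-12, drives interferon-gamma production. The amount of Il18 or Casp1 mRNA does not show how much precursor was cut.

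Immune mRNA was counted with barcoded probes of the nCounter Mouse Immunology Panel in 15 spleen samples, which made 5 groups of 3, and the mice were female C57BL/6J. Sham mice received neither radiation nor a burn. The WBIR (whole-body ionising radiation) group was exposed to 9 Gy from a caesium source, and RCI (radiation combined injury) mice received a contact burn of 20% of the body surface followed by the same 9 Gy. The WBIR+MSC-EVs and RCI+MSC-EVs groups were also given, intravenously and 72 hours after injury, extracellular vesicles shed by cultured mouse bone marrow mesenchymal stem cells, and spleens of these mice were taken 48 hours later. By the paper's account, mice not given vesicles, Sham included, received saline alone by tail vein at the same 72 hours. Their spleens were likewise taken 48 hours after that injection. The labels name PBS as the treatment of RCI and give no treatment for WBIR. Mice of all groups were wild type and of the same age range, and neither a burn without radiation nor vesicles without injury were analysed here. In the methods, anaesthesia, morphine and fluid belonged to the burn procedure and its Sham and are not described for WBIR alone, so that between RCI and WBIR they cannot be told apart from the burn. Between Sham and WBIR, with or without vesicles, their absence cannot be told apart from the radiation. RNA came from whole spleen suspensions after lysis of red cells, so that a lower level can mean fewer cells of a type or less RNA per cell, which cannot be told apart. The labels do not say that the 3 samples of a group were separate mice, and all p-values measure the spread between these samples, which may be technical.

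On the mouse assembly GRCm38.p6, Il18 lies at chr9:50554700-50581841 and Casp1 at chr9:5298517-5307281, far apart on the same chromosome. The receptor chains are neighbours on chromosome 1: Il18r1 at chr1:40465552-40500854 is followed after 14507 bases by Il18rap at chr1:40515362-40551707. Both close a cluster of IL-1 receptor genes that holds Il1r2, Il1r1, Il1rl2 and Il1rl1, and the annotation leaves 133 bases between the end of Il1rl1 and the start of Il18r1. The RefSeq sequence just upstream of each annotated start is shown because both receptor genes were lower after injury while Il18 and Casp1 were higher. All 4 windows are on the plus strand, 5′ to 3′, and end on the base before the start: chr9:50554450-50554699 for Il18, chr9:5298267-5298516 for Casp1, chr1:40465419-40465551 for Il18r1 (the intergenic bases only) and chr1:40515112-40515361 for Il18rap. Capitals mark matches to any of 4 motifs, chosen after the sequences had been seen and searched on both strands.
Il18: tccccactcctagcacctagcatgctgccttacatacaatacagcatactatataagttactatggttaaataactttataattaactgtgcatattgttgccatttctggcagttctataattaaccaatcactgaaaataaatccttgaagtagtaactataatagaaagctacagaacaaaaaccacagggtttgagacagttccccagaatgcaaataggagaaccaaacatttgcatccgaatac
Casp1: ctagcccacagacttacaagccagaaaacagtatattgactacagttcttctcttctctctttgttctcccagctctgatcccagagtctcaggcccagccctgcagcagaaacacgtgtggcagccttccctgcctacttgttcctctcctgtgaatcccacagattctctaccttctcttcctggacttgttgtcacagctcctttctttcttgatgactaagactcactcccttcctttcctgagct
Il18r1: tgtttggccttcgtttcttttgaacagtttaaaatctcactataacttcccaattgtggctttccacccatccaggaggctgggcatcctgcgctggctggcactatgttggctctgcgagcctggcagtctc
Il18rap: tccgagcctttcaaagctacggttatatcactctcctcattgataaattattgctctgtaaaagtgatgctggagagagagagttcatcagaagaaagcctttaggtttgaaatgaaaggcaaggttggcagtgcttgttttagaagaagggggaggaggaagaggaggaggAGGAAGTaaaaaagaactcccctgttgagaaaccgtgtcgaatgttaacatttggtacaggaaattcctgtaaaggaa
The interferon-stimulated response element, searched by its core GAAANNGAA, which 7.13% of 32851 RefSeq windows of 250 bases held, was in none of the 4 windows. Neither was the gamma-activated site TTCNNNGAA (7.02% of such windows) nor the T-box site TCACACC (3.33%). The ETS site AGGAAGT, the kind of site that PU.1 and other ETS factors bind, was in the Il18rap window, from 78 to 72 bases before the start, and 7.69% of all windows held it. In windows as short as the 133 bases shown for Il18r1, the shares were 3.46% for the interferon-stimulated response element, 3.59% for the gamma-activated site, 4.59% for the ETS site and 1.68% for the T-box site. These are matches of letters in these windows and say nothing of binding.

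Counts below were scaled to the geometric mean of the 14 reference genes of the panel, and the differences are log2 fold changes ± SE from an edgeR fit over the 426 endogenous genes that averaged 20 counts or more. Total counts per sample ran from 90127 to 598872 (median 360995), no value was 0, and the shallowest sample was WBIR+MSC-EVs replicate 1. Markers of the spleen's main populations were present in Sham: the summed scaled counts of 7 B cell markers were 15616 to 16798 there and 387 to 1114 in the injured groups, and those of 11 T cell markers were 9318 to 21486 against 2272 to 4900. The sum of the 5 macrophage markers measured (Emr1, Csf1r, Msr1, Marco and Cd163) went the other way. It was 1590 to 2518 in Sham and 9363 to 34492 after injury. Cd163 was an exception in RCI, where its 93.2 to 998 scaled counts overlapped the 203 to 427 of Sham. Sham replicate 2 stood apart from the other Sham samples, with the highest T cell, NK cell and neutrophil marker sums and the lowest macrophage sum of that group. Sham also enters 4 of the comparisons, which are therefore not independent of each other.

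Il18 was 10.5- to 11.8-fold higher in the injured groups than in Sham. The scaled counts were 167, 265 and 287 in the Sham samples. They were 2305, 2537 and 2668 after WBIR, and 2378, 2881 and 2555 after RCI. Every injured sample thus held at least 8.02 times the count of the highest Sham sample, and no injured group overlapped Sham. With vesicles, the counts were 2555, 3158 and 2792 after WBIR and 2480, 2597 and 2615 after RCI. In order of their means, WBIR+MSC-EVs (2835 ± 304, SD, n = 3) stood above RCI (2605 ± 255), RCI+MSC-EVs (2564 ± 73.2) and WBIR (2503 ± 184), but all neighbours in this order overlapped. Sham was last at 240 ± 63.7.

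The log2 fold change of Il18 against Sham was 3.39 ± 0.24 in WBIR and 3.57 ± 0.25 in WBIR+MSC-EVs. It was 3.44 ± 0.24 in RCI and 3.42 ± 0.24 in RCI+MSC-EVs, which correspond to 10.9-fold and 10.7-fold higher levels. The 4 estimates lay within 1 standard error of each other. The injured groups could not be ranked at this spread.

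**Figure D1:**
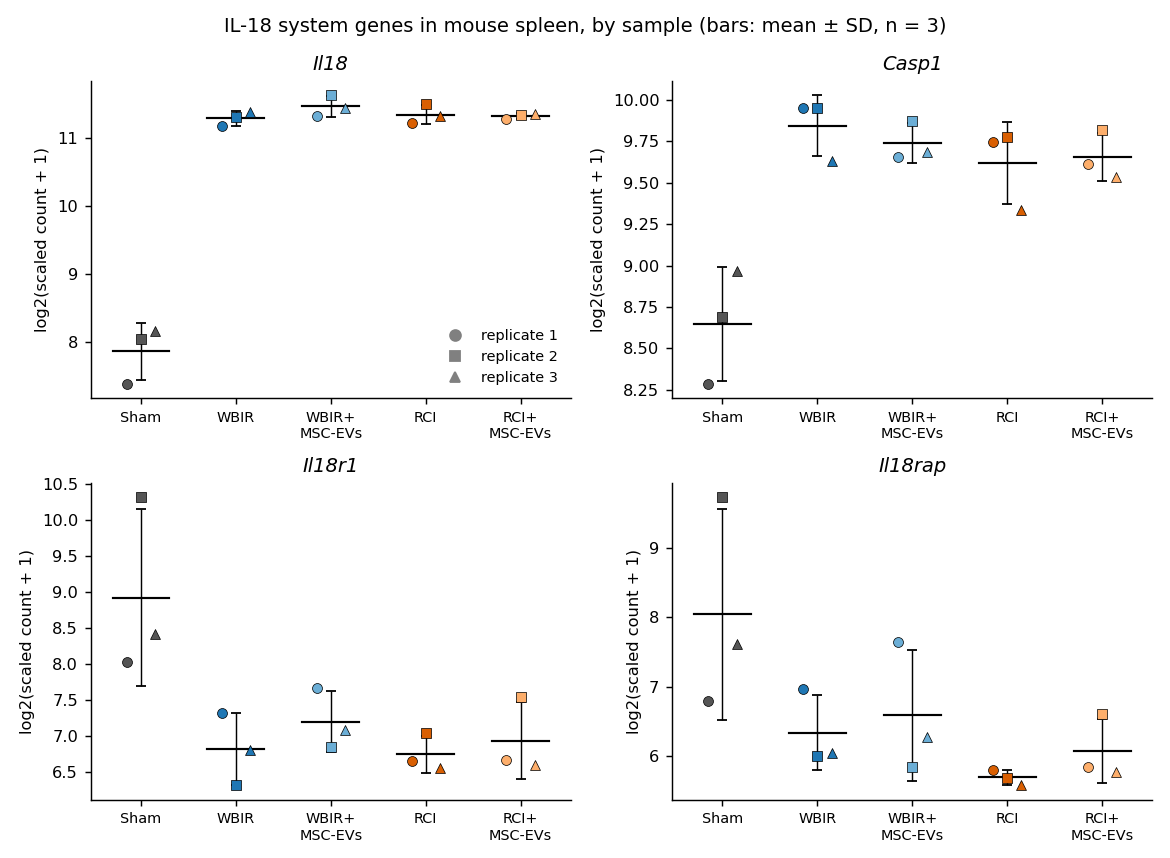
Level of Il18, Casp1, Il18r1 and Il18rap in each spleen sample, as log2(scaled count + 1) on axes that do not start at 0; points are samples, marked by replicate, and bars are the group mean ± SD (n = 3). Every injured sample lies above all Sham samples for Il18 and Casp1 and below all Sham samples for Il18r1, whereas Il18rap in WBIR and WBIR+MSC-EVs overlaps Sham.

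Casp1, which encodes the protease of the inflammasome, was 1.94- to 2.26-fold higher after injury. The Sham samples had 311, 412 and 500 scaled counts. The WBIR samples had 988, 988 and 793, and the RCI samples 858, 877 and 644. The lowest injured sample was RCI replicate 3, and it still lay above the highest Sham sample. With vesicles, the counts were 806, 939 and 823 after WBIR and 784, 902 and 740 after RCI, within or next to the ranges of the same injuries without vesicles. The log2 fold changes against Sham were 1.18 ± 0.22 for WBIR and 0.96 ± 0.22 for RCI without vesicles, and 1.07 ± 0.22 and 0.99 ± 0.22 with them.

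Il18 stood further above Sham than Casp1 did, also within each sample, without any scaling. The raw count of Il18 divided by that of Casp1 was 0.537 to 0.643 in Sham. Without vesicles it was 2.33 to 3.37 after WBIR and 2.77 to 3.97 after RCI, and with vesicles it was 3.17 to 3.39 and 2.88 to 3.54. No injured group overlapped Sham in this ratio, and the injured groups overlapped each other. The probes of different genes need not count equally well, so that this ratio compares samples and not the amounts of the transcripts.

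The summed macrophage markers moved with both genes. Per 1000 counts of the 5 summed macrophage markers, Il18 had 66.4 to 166 counts in Sham, 162 to 246 after WBIR and 74.1 to 197 after RCI, and with vesicles 145 to 247 and 151 to 170. On this measure every injured group overlapped Sham, but the highest Sham value was that of replicate 2, and without it (66.4 to 119) only RCI overlapped. Casp1 per 1000 macrophage marker counts was 124 to 259 in Sham and lower in all injured groups, at 48.9 to 106 after WBIR and 18.7 to 63.1 after RCI, and with vesicles 42.7 to 77.9 and 42.7 to 58.6. The lowest values of both ratios in RCI came from replicate 3, in which the macrophage sum was 34492, of which Marco alone made 27539. The other RCI samples had 175 and 197 for Il18, above all Sham samples. Sham replicate 2 and RCI replicate 3 were singled out after their values had been seen. With all samples kept, every injured group overlapped Sham for Il18. The part of the macrophage markers in the levels of Il18 and Casp1 was not tested.

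The receptor genes were lower in the groups in which the ligand was higher. Il18r1, which encodes the chain that binds IL-18, had 261, 1279 and 342 scaled counts in Sham. It had 160, 79.0 and 111 in WBIR, and 99.5, 131 and 93.2 in RCI. All of these injured samples lay below the lowest Sham sample. With vesicles, the counts were 203, 114 and 135 after WBIR and 101, 186 and 95.8 after RCI, again below Sham and overlapping the same injury without vesicles. The 3 Sham samples were themselves spread over 4.90-fold, with replicate 2 the highest.

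The log2 fold change of Il18r1 against Sham was -2.42 ± 0.53 in WBIR and -2.07 ± 0.53 in WBIR+MSC-EVs. In RCI it was -2.53 ± 0.53, and in RCI+MSC-EVs -2.29 ± 0.53. Without Sham replicate 2 the same values were -1.38, -1.03, -1.49 and -1.24. The direction stayed, while the estimates moved by about 1 on the log2 scale with this 1 sample.

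Il18rap, the accessory chain that completes the signalling receptor, behaved like Il18r1 with more overlap. The Sham samples had 109, 855 and 195 scaled counts. The WBIR samples had 124, 62.8 and 64.9, and the RCI samples 54.7, 50.3 and 46.6. WBIR replicate 1 lay above the lowest Sham sample, whereas all RCI samples lay below Sham and also below all WBIR samples. With vesicles, the counts were 200, 56.1 and 76.4 after WBIR, overlapping Sham, and 56.3, 96.6 and 53.2 after RCI, below it. The log2 fold changes against Sham were -2.19 ± 0.66 for WBIR and -2.91 ± 0.68 for RCI, and with vesicles -1.84 ± 0.66 and -2.47 ± 0.67. Without Sham replicate 2 they were -0.87 and -1.59, and with vesicles -0.53 and -1.15. Without WBIR+MSC-EVs replicate 1, the value of that group was -2.52.

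**Figure D2:**
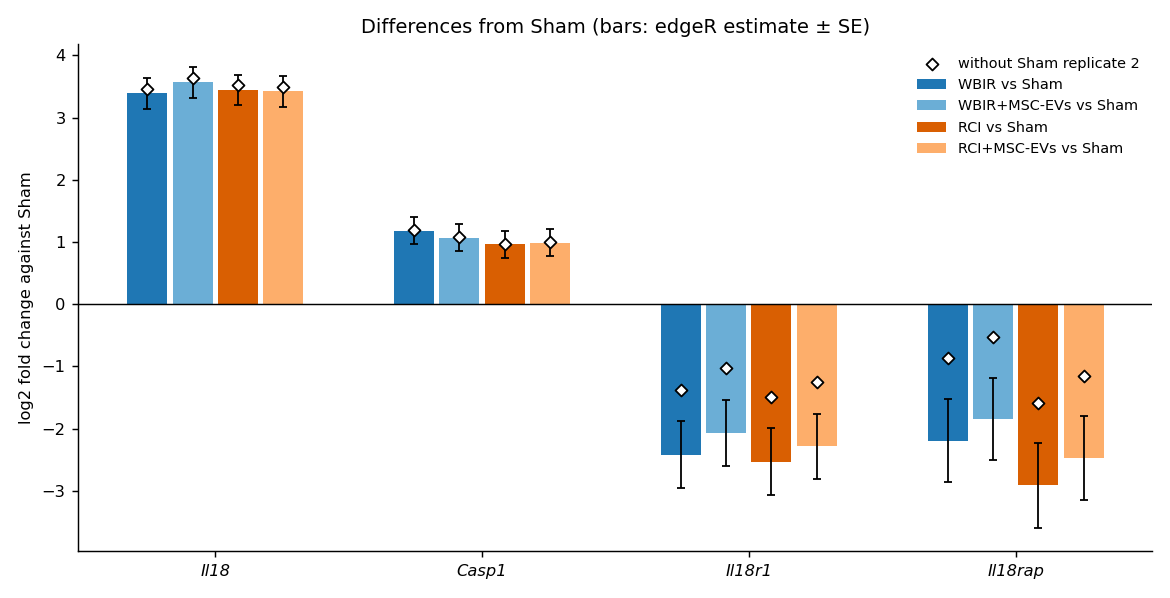
Log2 fold change of each gene against Sham in the 4 injured groups (bars, edgeR estimate; lines, ± 1 SE; 3 samples a group), with open diamonds for the estimate without Sham replicate 2. Il18 and Casp1 hardly move when that sample is left out, and Il18r1 and Il18rap move toward 0, to between -1.49 and -1.03 and between -1.59 and -0.53.

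How the 4 genes sat against the rest of the panel is given by the share of all tested genes whose groups did not overlap. Between WBIR and Sham, 3 of the 4 genes did not overlap (all but Il18rap), where 71.1% of all 426 genes did not. Between WBIR+MSC-EVs and Sham it was the same 3 of 4 against 69.0% of all genes. All 4 were apart from Sham in RCI, against 64.6% of all genes, and in RCI+MSC-EVs, against 70.4%. Nothing is read from these counts, since the genes were chosen on the same values.

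Scaling mattered for the size of these differences. Most tested genes were lower after injury when counts were scaled to the reference genes, with a median log2 fold change over all 426 genes of -0.74 in WBIR and -0.53 in RCI. Scaled by TMM, which assumes that most genes do not change, these medians were -0.03 and 0.01, a shift of 0.71 and 0.54. Il18 against Sham was then 4.01 in WBIR and 3.92 in RCI, and Casp1 1.79 and 1.39. Il18r1 was -1.59 and -1.87, and Il18rap -1.32 and -2.20, so that no direction turned.

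The receptor genes tracked lymphocyte markers to different degrees. Per 1000 counts of the 11 summed T cell markers, Il18r1 had 24.5 to 59.5 counts in Sham, 34.2 to 57.9 after WBIR and 28.2 to 41.0 after RCI, and with vesicles 41.9 to 70.3 and 24.7 to 38.0. All injured groups thus overlapped Sham, and Il18rap on the same base (10.2 to 39.8 in Sham) overlapped in all of them too. Without Sham replicate 2, Il18r1 in WBIR+MSC-EVs and Il18rap in WBIR and WBIR+MSC-EVs lay above both other Sham samples on this base. The T cell sum was highest in Sham replicate 2 at 21486, the sample with the highest counts of both receptor genes.

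Against NK cell markers the pattern was another. The 9 markers measured (Klrd1, Klrc1, Klrc2, Klrk1, Ncam1, Gzma, Gzmb, Prf1 and Eomes) summed to 1754 to 5897 in Sham, to 1557 to 3557 in WBIR and to 836 to 1274 in RCI, with 5897 in Sham replicate 2. Klrb1c and Ncr1, which define mouse NK cells more narrowly, were not analysed here. Per 1000 counts of this sum, Il18r1 had 149 to 217 counts in Sham, 44.9 to 61.3 after WBIR and 78.1 to 120 after RCI, and with vesicles 54.0 to 79.6 and 95.04 to 126. For Il18r1 all injured samples lay below Sham, and all WBIR samples below all RCI samples. Il18rap on the same base had 62.4 to 145 counts in Sham, 34.7 to 40.3 after WBIR and 42.9 to 55.7 after RCI. With vesicles it had 35.1 to 53.2 after WBIR and 52.8 to 65.3 after RCI, the last overlapping Sham. The markers did not move as one: the receptor gene Klrd1 had 756 to 2759 scaled counts in Sham and 178 to 405 in WBIR, while the granzyme gene Gzmb had 21.5 to 78.4 and 119 to 297. Gzma, another granzyme gene and the largest part of the sum in WBIR, had 262 to 1316 scaled counts in Sham and 625 to 1668 in WBIR. The values per NK cell marker count thus depend on which markers are summed. The part of T cells and NK cells in the receptor values was not tested.

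**Figure D3:**
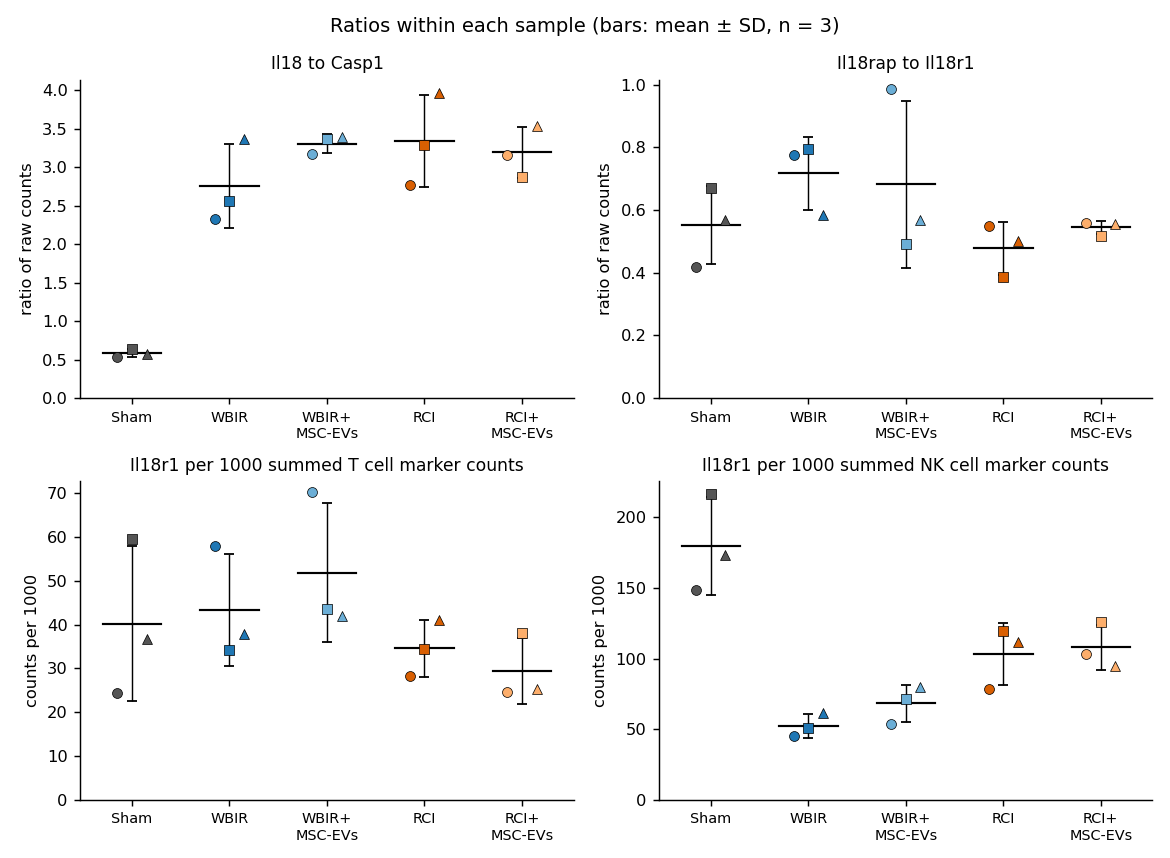
Ratios of raw counts within each sample, which need no scaling: Il18 to Casp1, Il18rap to Il18r1, and Il18r1 per 1000 summed counts of T cell or NK cell markers (points, samples; bars, mean ± SD, n = 3; axes start at 0). Injured samples are apart from Sham for Il18 to Casp1 (at least 2.33 against at most 0.643) and for Il18r1 per NK cell marker counts, and overlap it in the other 2 panels.

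The proportion of the receptor chains to each other overlapped between Sham and the injured groups. The count of Il18rap divided by that of Il18r1 was 0.419 to 0.669 in Sham, 0.583 to 0.795 after WBIR and 0.385 to 0.550 after RCI, and with vesicles 0.493 to 0.986 and 0.519 to 0.558. RCI lay wholly below WBIR in this ratio. The highest value came from WBIR+MSC-EVs replicate 1, the shallowest sample.

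With vesicle treatment all 4 genes overlapped the same injury without vesicles. Between WBIR+MSC-EVs and WBIR the log2 fold changes were 0.18 ± 0.22 for Il18, -0.11 ± 0.21 for Casp1, 0.35 ± 0.52 for Il18r1 and 0.35 ± 0.66 for Il18rap. Without WBIR+MSC-EVs replicate 1, the shallowest sample, Il18rap turned to -0.33. Of all 426 genes, 8.92% did not overlap between these groups. Between RCI+MSC-EVs and RCI they were -0.02 ± 0.22 for Il18, 0.03 ± 0.21 for Casp1, 0.24 ± 0.51 for Il18r1 and 0.44 ± 0.66 for Il18rap, where 10.8% of all genes did not overlap. The change with vesicles in RCI minus that in WBIR was -0.20 ± 0.31 for Il18, 0.14 ± 0.30 for Casp1, -0.11 ± 0.73 for Il18r1 and 0.09 ± 0.92 for Il18rap.

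Same-numbered samples of an injury with and without vesicles deviated together from their group means, so the differences are also given within these pairs, though a pairing was not established. The scaled count of Il18 was higher with vesicles in 3 of 3 WBIR pairs, by 250, 621 and 124, and that of Il18r1 was higher in 3 of 3, by 23.5 to 43.5. In RCI the pairs differed by 102, -285 and 59.6 for Il18, which was thus higher in 2 of 3, and Il18r1 was higher in 3 of 3, by 1.26, 55.6 and 2.59. Il18rap was higher in 2 of 3 WBIR pairs and 3 of 3 RCI pairs, and Casp1 in 1 of 3 and 2 of 3. With the replicate number as a block within each injury, a setting chosen after seeing the data, the log2 fold changes after WBIR were 0.18 ± 0.23 for Il18, 0.38 ± 0.52 for Il18r1, 0.26 ± 0.64 for Il18rap and -0.10 ± 0.22 for Casp1. After RCI they were -0.02 ± 0.23, 0.19 ± 0.52, 0.39 ± 0.65 and 0.04 ± 0.22 in the same order.

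Il18 overlapped between RCI and WBIR, and the sign of its small difference depended on the scaling (-0.10 with TMM). The log2 fold change of RCI against WBIR was 0.06 ± 0.22 for Il18, -0.22 ± 0.21 for Casp1 and -0.11 ± 0.52 for Il18r1, with overlapping groups. For Il18rap it was -0.72 ± 0.66, and the highest RCI sample (54.7) lay below the lowest WBIR sample (62.8). That was 1 of 4 genes without overlap, where 27.0% of all 426 genes had none.

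The genes whose pattern over the 15 samples was most like that of each of the 4 were found by the root mean square (RMS) difference of log2(scaled count + 1), after each gene was centred on its mean. For Il18 they were Fcer1g, the shared gamma chain of Fc receptors (RMS 0.32), Pparg, a nuclear receptor of macrophages and fat cells (0.33), and Emr1, which encodes the macrophage antigen F4/80 (0.39), where the median over all tested genes was 1.68. For Casp1 they were Ube2l3, a ubiquitin-conjugating enzyme (0.22), Ifi35, an interferon-induced gene (0.22), and Cx3cr1, a chemokine receptor (0.30), with a median of 0.90. For Il18r1 they were Zap70, a T cell receptor kinase (0.31), Il18rap (0.33) and Cd247, the T cell receptor zeta chain (0.35), with a median of 0.91. For Il18rap they were Il18r1 (0.33), Klrd1, the NK cell receptor CD94 (0.44), and Zap70 (0.52), with a median of 1.05. Emr1, Zap70, Cd247 and Klrd1 were also in the marker lists above. The likeness was taken over all 15 samples and so includes the difference between Sham and injured samples. How much of it rests on that difference was not tested.

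The remaining counts leave out these 4 genes and cover 47 others of the pathway, of which 34 were in the table and 31 could be tested. Against Sham, 4 of the 31 were higher and 11 lower in WBIR (adjusted p under 0.05, edgeR's quasi-likelihood test, Benjamini-Hochberg over 426 genes), where 21.6% and 46.9% of all tested genes were. In WBIR+MSC-EVs 5 were higher and 11 lower, against 22.8% and 45.1% of all genes. RCI had 9 higher and 9 lower, against 26.5% and 43.0% of all genes, and with vesicles again 9 and 9, against 23.9% and 41.3%. The median log2 fold change of the 31 genes was -0.53 in WBIR and -0.17 in RCI, beside -0.74 and -0.53 over all tested genes, and with vesicles it was -0.19 and -0.16, beside -0.61 and -0.45. With TMM scaling the split was 9 higher and 8 lower in WBIR and 11 and 7 in RCI, and with vesicles 11 and 7 after WBIR and 11 and 8 after RCI. Of the genes called against Sham, 12 of 15 in WBIR and 16 of 18 in RCI were also called with TMM. Genes named below beyond the 3 largest changes each way were named after their values had been seen.

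Of the other inflammasome parts, only Casp8 and Nod2 of the 14 listed were in the table. Casp8, a caspase of cell death that can also cut IL-1 family precursors, had log2 fold changes of -0.15 ± 0.25 in WBIR and -0.04 ± 0.25 in RCI against Sham. Nod2, a sensor of bacterial wall fragments, had 0.44 ± 0.55 and 0.67 ± 0.55. Neither passed the test in any comparison as fitted. With TMM scaling Casp8 was called higher in WBIR (0.54) and RCI (0.46), a change of sign in both. Nod2 moved to 1.06 in WBIR and 1.29 in RCI without Sham replicate 1, and was called in RCI+MSC-EVs with TMM scaling (1.51). The adaptor Pycard, the pore protein gene Gsdmd, the sensors Aim2 and Nlrc4, and the IL-18 inhibitor Il18bp were not analysed here.

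Among receptors that prime cells for inflammasome use, Tlr4, which senses lipopolysaccharide, rose after every injury. Its mean was 144 ± 31.0 scaled counts in Sham (SD, n = 3), 618 ± 196 in WBIR and 618 ± 343 in RCI, and the log2 fold change was 2.10 ± 0.42 in both (adjusted p = 0.000546 in WBIR and 0.000548 in RCI, edgeR). The RCI samples had 818, 814 and 222, and the last, replicate 3, still lay above the highest Sham sample (174). With vesicles the log2 fold change was 2.13 ± 0.42 after WBIR and 2.30 ± 0.42 after RCI. Cd14, the partner of Tlr4, rose in 3 injured groups and was 1.06 ± 0.45 in WBIR (edgeR adjusted p = 0.0506). Tlr2, a receptor for bacterial lipoproteins, was called in RCI (1.27 ± 0.50) and RCI+MSC-EVs (1.22 ± 0.50), but the call in RCI was lost without RCI replicate 3 (0.70), Sham replicate 1 (1.04) or Sham replicate 3 (1.29). The call in RCI+MSC-EVs was lost when any 1 of 6 samples was left out, among them RCI+MSC-EVs replicate 3 (0.59).

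The sister cytokines of IL-18 did not move as one. Il1a, which encodes IL-1 alpha, rose from 24.1 ± 12.1 scaled counts in Sham to 115 ± 20.6 in WBIR, a log2 fold change of 2.26 ± 0.80 (adjusted p = 0.0218, edgeR) that missed the threshold without Sham replicate 1 (1.86) or Sham replicate 2 (2.32). In RCI it was 4.81 ± 0.86 (adjusted p = 0.000212), with 153, 222 and 1634 scaled counts, and it was 2.97 without RCI replicate 3 (still called). Il1b, which encodes another substrate of caspase-1, was -0.93 ± 0.88 in WBIR and 1.18 ± 0.87 in RCI and passed in neither. Both signs rested on 1 sample: the value in WBIR turned to 0.18 without Sham replicate 2, and the value in RCI to -1.06 without RCI replicate 3 and 2.29 without Sham replicate 2. Il1rn, the secreted IL-1 receptor antagonist, was called higher in RCI (2.23 ± 0.84), but with 23.3, 49.1 and 342 counts against 14.9, 56.4 and 24.6 in Sham the value fell to 0.28 without RCI replicate 3. The same call was lost without Sham replicate 1 (1.87) or Sham replicate 3 (2.09). Il33, an alarmin of the family, passed in no comparison as fitted, but was called higher in WBIR+MSC-EVs than in Sham with TMM scaling (1.96) or without Sham replicate 2 (2.05).

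Of the other receptors of the family, 3 of 5 tested were lower in WBIR, where 46.9% of all tested genes were. Sigirr, an inhibitory receptor that also dampens IL-18 signalling, fell from 552 ± 180 scaled counts in Sham to 52.7 ± 8.89 in WBIR and 76.6 ± 22.2 in RCI, a log2 fold change of -3.38 ± 0.35 (adjusted p = 1.70e-06, edgeR) and -2.85 ± 0.34 (6.72e-06). Il1r2, the decoy receptor for IL-1, fell by 2.60 ± 0.65 on the log2 scale in WBIR and fell by 2.93 ± 0.66 in RCI. Il1rl2, the IL-36 receptor, was called lower in WBIR (-1.76 ± 0.50) and was -0.85 ± 0.47 in RCI, and without Sham replicate 2 these values were -1.16 (still called) and -0.26. Il1r2, Il1rl2, Il18r1 and Il18rap lie in the same cluster on chromosome 1 as Il1r1, which did not share their direction in RCI.

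Il1r1, the signalling receptor of IL-1, was the 1 pathway gene called between RCI and WBIR (0.704% of all 426 genes were). It had 14.2, 18.2 and 13.5 scaled counts in WBIR and 48.4, 50.3 and 98.4 in RCI, with 29.8, 19.6 and 17.7 in Sham. All RCI samples lay above all WBIR and Sham samples. The log2 fold change of RCI against WBIR was 2.11 ± 0.35 (adjusted p = 0.00607, edgeR), with adjusted p between 7.39e-05 and 0.0743 over the alternative settings. The threshold was missed with TMM scaling (2.03, adjusted p = 0.0618) and without WBIR replicate 3 (2.02, adjusted p = 0.0743). Against Sham it was 1.54 ± 0.34 in RCI and -0.56 ± 0.36 in WBIR.

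Of 11 shared signalling genes downstream of these receptors, 1 was higher and 6 lower in WBIR, where 21.6% and 46.9% of all tested genes were. Myd88, the adaptor of the IL-18 receptor and of most Toll-like receptors, was 0.85 ± 0.18 above Sham in WBIR and 1.39 ± 0.18 in RCI (log2, adjusted p = 0.000764 and 1.38e-05, edgeR). The kinase gene Irak2 had log2 fold changes of -1.99 ± 0.25 in WBIR and -2.05 ± 0.25 in RCI, and the ubiquitin ligase gene Traf6 had -1.36 ± 0.23 and -1.49 ± 0.23. Ikbkb, an activating kinase of NF-kB, had -2.23 ± 0.37 and -1.63 ± 0.36, which became -1.4997 and -0.89 without Sham replicate 2 (both still called), and the NF-kB subunit genes Rela and Nfkb1 were called lower in both, Nfkb1 in RCI not without RCI replicate 1 (-0.50) or RCI replicate 2 (-0.42). With TMM scaling neither was called, at -0.25 for Rela and -0.23 for Nfkb1 in WBIR and -0.21 and -0.03 in RCI, while the kinase gene Irak4 was called higher in both (1.24 and 1.02) and Mapk14, which encodes the kinase p38 alpha, in WBIR (1.03). Tollip, an inhibitor of the pathway, was called lower in WBIR (-0.53 ± 0.19), changed sign with TMM scaling, and lost its call without Sham replicate 2 (-0.37), Sham replicate 3 (-0.48) or any 1 WBIR sample (-0.52 to -0.54).

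The partners of IL-18 in interferon-gamma production split as well. Il12a, a subunit of IL-12, fell from 167 ± 91.1 scaled counts in Sham to 11.9 ± 3.90 in WBIR and 25.2 ± 9.33 in RCI, log2 fold changes of -3.80 ± 0.55 and -2.73 ± 0.51, with raw counts of only 9 to 15 and 26 to 30 after injury. Stat4, the factor that IL-12 activates, was lower as well, by -1.73 ± 0.26 and -2.25 ± 0.26. Il15, a growth factor of NK cells, rose by 1.83 ± 0.51 and 2.36 ± 0.51, from a mean of 18.3 ± 5.42 scaled counts in Sham to 62.2 ± 14.1 and 90.7 ± 57.5. The RCI samples had 119, 128 and 24.46, and the last, replicate 3, lay inside the Sham range (14.6 to 24.50). The IL-12 receptor genes Il12rb1 and Il12rb2 and the factor gene Tbx21 passed in no comparison as fitted, though Il12rb2 was called higher in WBIR with TMM scaling (1.06) and Tbx21 lower in RCI without Sham replicate 3 (-1.45), and Il12b and Ifng lay under the filter on low counts.

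**Figure D4:**
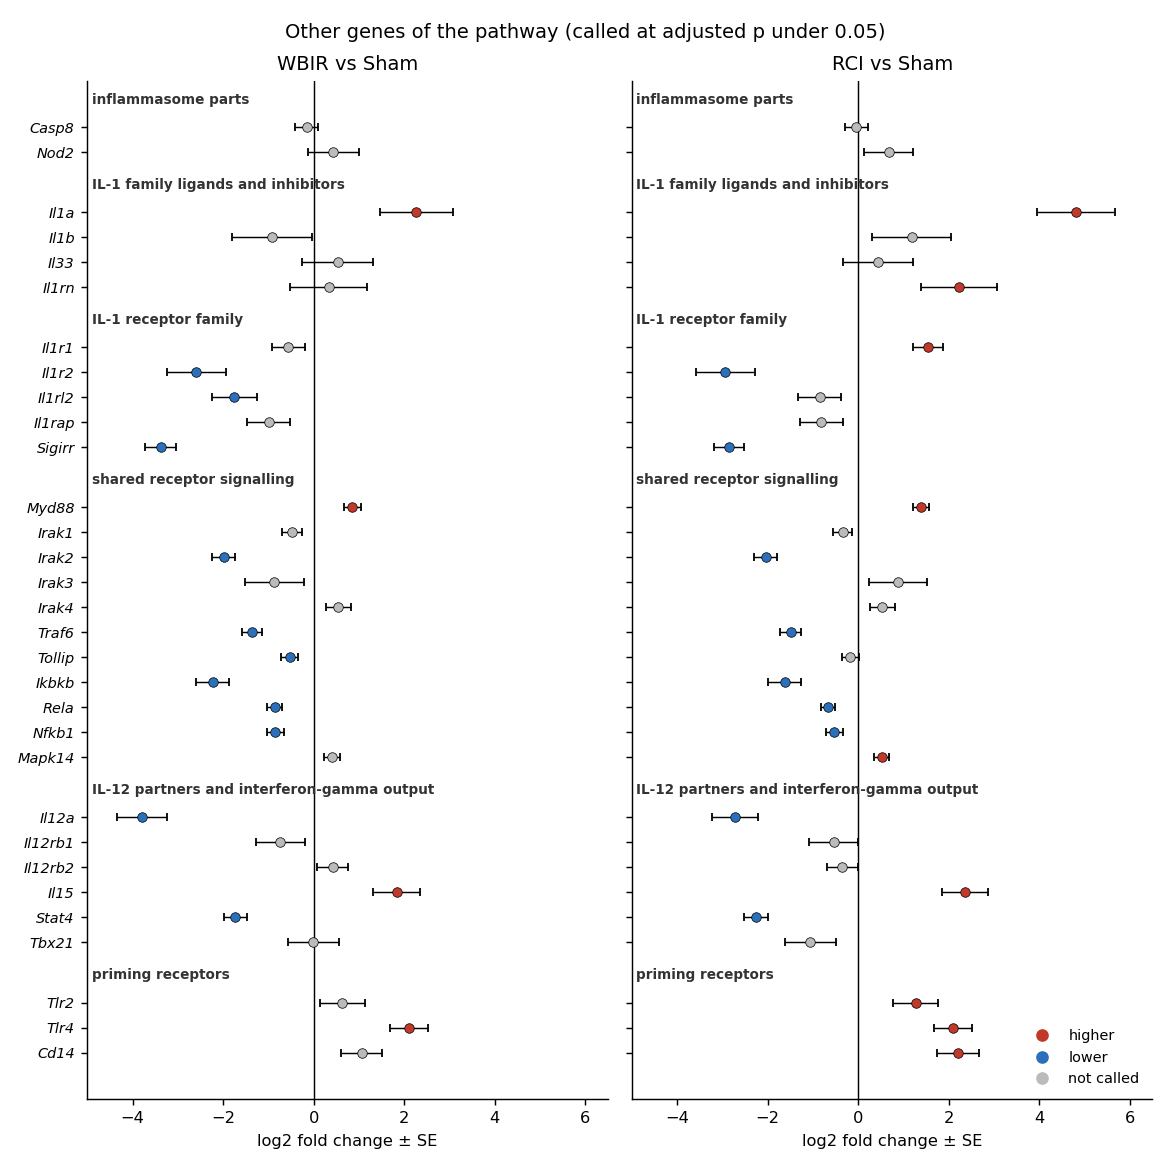
Log2 fold change ± SE (edgeR, 3 samples a group) of the 31 tested pathway genes in WBIR and RCI against Sham, grouped by role; red and blue points were called higher and lower at an adjusted p under 0.05 and grey points were not called. The 3 priming receptors lie above 0 in both comparisons. The receptor family lies wholly below 0 in WBIR and on both sides in RCI, where Il1r1 is above 0. The shared signalling genes lie on both sides in both.

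No pathway gene was called with vesicle treatment. The count was 0 of 31 between WBIR+MSC-EVs and WBIR and 0 of 31 between RCI+MSC-EVs and RCI with edgeR, DESeq2 and limma and with the block within each injury, and 0 had an unadjusted p under 0.05 with edgeR, where 0% of all 426 genes were called in either comparison. For the vesicle effect in RCI against that in WBIR it was also 0, with 1 gene at an unadjusted p under 0.05 (Il1r1, -1.12 ± 0.48, adjusted p = 0.998) and 0% of all genes called. The 3 genes with the smallest p after WBIR were Il1r1 (0.47 ± 0.36), Il33 (0.89 ± 0.74) and Il12rb2 (-0.39 ± 0.34), and Il33 turned to -0.38 without WBIR+MSC-EVs replicate 1. After RCI they were Il1r1 (-0.65 ± 0.32), Il1a (-1.44 ± 0.72) and Il1rn (-1.51 ± 0.79). Without RCI replicate 3 these values were 0.40 for Il1a and 0.45 for Il1rn.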

How the data were processed

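The authors hybridised spleen RNA to the nCounter Mouse Immunology Panel and deposited 1 table of raw counts for 561 genes (547 endogenous, 14 reference) in 15 samples; their own normalisation with nSolver is not in these values. Here each sample was scaled to the geometric mean of the 14 reference genes. Genes that averaged 20 counts or more (426) were fitted in edgeR 4.0.16 (R 4.3.3, quasi-likelihood, 1 coefficient per group, all samples, 10 residual degrees of freedom before moderation), and p-values were adjusted by Benjamini-Hochberg within a comparison. Alternatives were other scalings, filters, a replicate block, DESeq2 1.42.0, limma 3.58.1 and leaving out each sample. The code was tested on simulated data. Whether the replicate numbers in the sample titles pair samples was checked by the correlation of same-numbered samples' deviations from their group means: r was 0.24 to 0.68 between WBIR and WBIR+MSC-EVs and 0.26 to 0.52 between RCI and RCI+MSC-EVs (over 0.1 in 3 of 3 pairs each), and at or under 0.1 in at least 1 pair of every other pair of groups. Differently numbered samples were not compared, so these values do not establish a pairing. A block within each injury was added for the vesicle comparisons as an alternative. Replicates of a group differed by more than counting noise, so none was a repeat deposit.

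The genes and lists were chosen with earlier results of these data known. Pathway genes named were, per comparison, up to 3 called with the largest rise and 3 with the largest fall, or the 3 with the smallest p where none was called, and for each IL-18 gene the 3 most similar in pattern. Of the panel's symbols, 545 are current in RefSeq (GRCm38.p6), 14 matched as older names and 2 did not match. Upstream sequences were matched by symbol for all 4 genes. Groups came from the labels. Precision is limited by 3 samples a group.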

Additional observations from a re-analysis of the deposited data

Results flagged for a closer look

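Il1r1, the IL-1 receptor gene in the same chromosome 1 cluster as the IL-18 receptor genes, was the only tested pathway gene called between RCI and WBIR. It differed by 2.11 ± 0.35 on the log2 scale (adjusted p = 0.00607, edgeR, higher in 3 of 3 RCI samples than in every WBIR sample). The call was lost with TMM, median-of-ratios or total count scaling and without WBIR replicate 3. DESeq2 also called Il1a and Myd88. Against Sham, Il1r1 was 1.54 ± 0.34 in RCI and -0.56 ± 0.36 in WBIR. Its raw counts were low, from 11 to 18 in WBIR and from 42 to 169 in RCI.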

How the results depend on the processing

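With 3 samples a group, the size of each difference depended on the scaling and, for the receptor genes, on 1 Sham sample. No difference of the 4 genes against Sham changed direction in the 22 alternatives in which it was recorded. These leave out the changed filters, DESeq2 and limma. Scaling by TMM, by median of ratios and by total count gave Il18 against Sham as 4.01, 4.03 and 3.96 (WBIR), 4.09, 4.11 and 4.05 (WBIR+MSC-EVs), 3.92, 3.94 and 3.83 (RCI), and 3.74 and 3.73 by the first 2 (RCI+MSC-EVs). Casp1 was 1.79, 1.81 and 1.76, then 1.58, 1.60 and 1.55, then 1.39, 1.41 and 1.32, and 1.29, 1.27 and 1.27 in the same order of groups. Il18 in RCI+MSC-EVs against RCI was -0.17 by TMM and -0.21 by median of ratios. Il18 in RCI against WBIR was -0.10 by TMM, -0.087 by median of ratios, -0.13 by total count and -0.25 with the 7 least variable reference genes, and Casp1 was -0.52 with those 7.

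Leaving out 1 sample, Il18r1 against Sham ran from -2.79 to -1.38 (WBIR), -2.44 to -1.03 (WBIR+MSC-EVs), -2.91 to -1.49 (RCI) and -2.66 to -1.24 (RCI+MSC-EVs). Il18rap ran from -2.64 to -0.87, -2.52 to -0.53, -3.36 to -1.59 and -2.92 to -1.15. The upper ends came without Sham replicate 2, and the cause was not tested.

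The count of pathway genes called between RCI and WBIR was 1. It was 0 with TMM, median-of-ratios or total count scaling and 0 with a mean of at least 50 counts, a filter that leaves Il1r1 out. DESeq2 called 3 (Il1r1, Il1a and Myd88), and leaving out 1 sample gave 0 (without WBIR replicate 3) to 2 (Il1r1 and Il1a, without RCI replicate 1).

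The correlation of same-numbered samples was over 0.1 in 3 of 3 pairs in both vesicle comparisons, and in fewer pairs of every other pair of groups. Differently numbered samples were not compared, so a pairing was not established. With a replicate block within each injury, chosen after seeing the data, 0 of 31 pathway genes were called with vesicles in either injury or in the difference between injuries, and it changed no call. With a replicate block over all groups the pathway counts were 17, 17, 17 and 19 against Sham, where they were 15, 16, 18 and 18 without it, and Il18 in WBIR was 3.40.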
